A study of Schizosaccharomyces pombe with 6 samples.

Results

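The genes described here are those whose common name marks them as genes of arginine, histidine, isoleucine and valine, leucine, lysine, methionine or tryptophan synthesis. They were chosen as the protein-coding genes whose common name is *arg*, *his*, *ilv*, *leu*, *lys*, *met* or *trp* followed by a number. This name pattern matched 47 of the 5126 protein-coding IDs in the count table. Their products show that 44 of them take part in amino acid synthesis or in the sulfur and one-carbon reactions that feed it. The other 3 do not: *arg82* is annotated as an inositol polyphosphate kinase, and *trp1322* and *trp663* encode channels of the TRP type. These 3 are counted as members but are described separately.

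Poly(A)+ RNA was sequenced from 3 biological replicates of wild-type fission yeast and 3 of *spx1*Δ cells, both *h+*, grown vegetatively to log phase at 30°C in the rich medium YES. The mutant carries *spx1*Δ::kanMX, a deletion of the gene for a RING finger protein with an SPX domain, the module that binds inositol pyrophosphates. Each group is 1 strain, so any other difference between the strains cannot be told apart from the effect of *spx1*. The strains that the study constructed, the *spx1*Δ strain among them, also carry *leu1-32*, *ura4-D18*, *his3-D1* and an *ade6* allele, and *leu1* and *his3* are members of the set. The wild type is described as the parental strain, but its genotype at these loci was not given in the sources used here.

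Total counts ranged from 11539278 to 15282140 in wild-type libraries and from 20929960 to 24696086 in *spx1*Δ libraries, so depth goes with strain. Normalized counts are counts scaled by TMM to a common library size. The targeted gene *spx1* had normalized counts of 5436, 5290.4 and 5153 in wild-type replicates 1, 2 and 3 and of 2163, 2185 and 2062 in the *spx1*Δ replicates. It was lower in every mutant library, yet 0.404 of the wild-type level remained on a gene labelled as deleted. According to the study, the deletion removed the open reading frame, and counts were made over annotated exons. Whether the remaining reads lie outside the reading frame was not analysed here. *spx1*Δ replicate 1 stood apart from the other two: the first principal component had wild-type scores of -33.7 to -32.1, and mutant scores of 9.25, 49.7 and 39.5. Summed levels of mating and meiosis markers moved in the same order, though single genes such as *mfm2* did not. The summed level of 3 P cell markers was 60.4 to 71.7 CPM (counts scaled to the library total) in wild-type cells. In *spx1*Δ replicates 1, 2 and 3 it was 113, 348 and 247 CPM. Of the 3 genes *map2* rose (log2 fold change 5.01, adjusted p = 0.00379 from edgeR), and *map1* and *map3* did not pass. For 7 M cell markers the sums were 187 to 214 CPM and 217, 340 and 298 CPM, with 3 of 6 tested higher and 1 lower. For 6 meiotic markers they were 44.4 to 48.1 CPM and 70.7 to 122 CPM, with 3 higher and 1 lower. For comparison, 27.6% of the tested genes rose and 25.4% fell. The M-factor precursor genes differed: *mfm3* rose from a mean of 17.5 to 187.5 normalized counts (log2 fold change 3.42, adjusted p = 0.00495 from edgeR), while *mfm1* averaged 5.45 in wild-type and 3.05 in mutant libraries, too few to be tested. *mfm2* averaged 39.8 in wild-type and 49.5 in mutant libraries and did not pass (0.32, adjusted p = 0.176). The M-factor transporter gene *mam1* was the one lower (-0.43, adjusted p = 0.0289), and the P-factor receptor gene *mam2* rose (1.59, adjusted p = 0.0156). Leaving out any library except *spx1*Δ replicate 1 ended the *mam1* call (adjusted p = 0.0638 to 0.102), and *mam2* lost its call without *spx1*Δ replicate 3 (0.0562) or any wild-type library (0.0578 to 0.0625). In bulk RNA, fewer cells expressing a gene and less RNA per cell cannot be told apart. The part of these cells or genes in the results below was not tested.

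Fission yeast can make every amino acid from central carbon intermediates, ammonium and sulfate, by pathways that are largely shared with other fungi. Arginine is built from glutamate through acetylated intermediates and ornithine, and lysine by the fungal aminoadipate route from 2-oxoglutarate. Isoleucine, valine and leucine share their first enzymes, histidine starts from a sugar phosphate and ATP, and tryptophan starts from chorismate. Methionine needs reduced sulfur from sulfate and a methyl group from folate. In fungi many of these genes are induced when amino acids run short, through kinases of the initiation factor eIF2 and a master transcription factor, which in fission yeast is Fil1. YES is a rich medium, so cells grown in it can take amino acids up. The *spx1*Δ strain carries alleles of *leu1* and *his3*, which are genes of leucine and histidine synthesis. Whether its cells can complete these pathways or depend on uptake was not tested here.

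All 47 members passed the filter on low counts and entered the quasi-likelihood test of edgeR over 6127 genes, and a gene was called at a Benjamini-Hochberg adjusted p of at most 0.05. In *spx1*Δ cells 10 members rose, 9 fell and 28 did not pass. Of all genes tested 27.6% rose and 25.4% fell, 52.9% in all. Of the 4986 protein-coding genes tested 21.2% rose and 30.2% fell, 51.4% in all, against 40.4% of the members. The members' shares, 21.3% higher and 19.1% lower, were close to the background for rises and under it for falls. When the fit was limited to protein-coding genes the background was 26.0% higher and 23.9% lower, and 11 members were higher and 9 lower. The median log2 fold change of the members was -0.10, against -0.08 for protein-coding genes and -0.01 for all genes.

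Changes were small. Of the 44 synthesis genes 9 rose and 8 fell, and 0 changed by 2-fold or more with a call, against 6.98% of protein-coding genes and 13.6% of all genes. This 0 depended on the analysis: *met17* was called with a log2 fold change of -1.05 by limma-voom (adjusted p = 0.0437), -1.06 with the replicate number as a block (0.0351) and -1.47 without *spx1*Δ replicate 1 (1.25e-06). Their log2 fold changes ran from -0.93 to 0.58, with a median absolute value of 0.23, beside 0.29 for protein-coding genes. Normalized counts of the strains did not overlap for 10 synthesis genes that were higher and 17 that were lower in *spx1*Δ cells, against 26.0% and 39.5% of protein-coding genes. The members together took 2.17% ± 0.02 (SD, n = 3) of all counts in wild-type libraries and 2.17% ± 0.02 (SD, n = 3) in *spx1*Δ libraries. A large part was *met26* alone, with 0.484% ± 0.009 in wild-type and 0.454% ± 0.042 in *spx1*Δ libraries. The other members took 1.685% ± 0.014 and 1.713% ± 0.046. Equal totals therefore do not mean that each member kept its share.

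**Figure D1:**
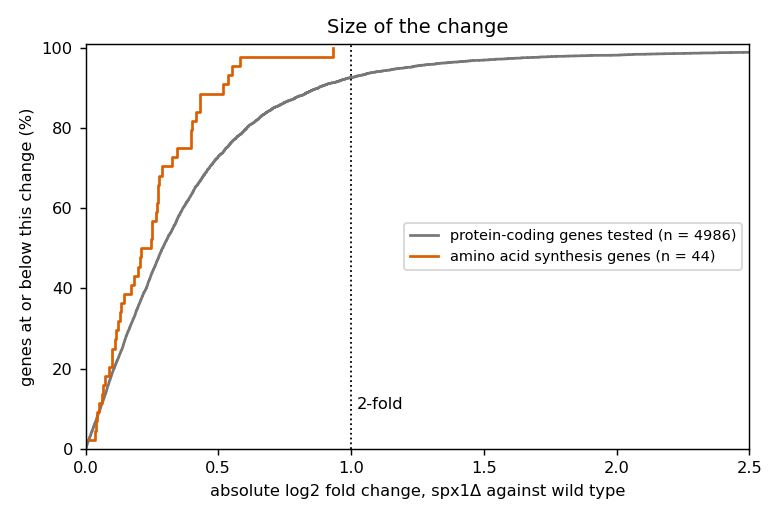
Cumulative share of genes (vertical axis, percent) by absolute log2 fold change of *spx1*Δ against wild type (horizontal axis), for 4986 protein-coding genes (grey) and the 44 amino acid synthesis genes (orange). The dotted line marks 2-fold; all 44 synthesis genes lie to its left, with a median of 0.23 against 0.29.

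A call depended on which libraries were used. Leaving out 1 wild-type library left 3 higher and 3 lower without replicate 1, 5 and 4 without replicate 2, and 4 and 4 without replicate 3. Without *spx1*Δ replicate 2 there were 6 and 8, and without replicate 3 there were 3 and 4. Without *spx1*Δ replicate 1 there were 11 and 24, and all 19 of the original calls were among them. That fit called 30.2% of protein-coding genes higher and 45.6% lower, against 21.2% and 30.2% with all libraries. So gains of calls there were not particular to the members. The other fits with a library left out called 10.3% to 16.0% of protein-coding genes higher and 10.8% to 20.9% lower. Replicate 1 was the *spx1*Δ library closest to wild type for 36 of the 44 synthesis genes, against 74.7% of protein-coding genes, and for 18 of the 19 called members, against 86.7% of called protein-coding genes. Over the synthesis genes mutant replicates 1, 2 and 3 departed from the wild-type mean by a median of 0.12, 0.33 and 0.25 on the log2 scale, sign aside. A core of 6 members kept their call in all 12 alternative analyses, 12.8% of the members against 19.7% of protein-coding genes: *leu3*, *leu2* and *arg5*, which rose, and *arg6*, *his1* and *his7*, which fell.

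**Figure D2:**
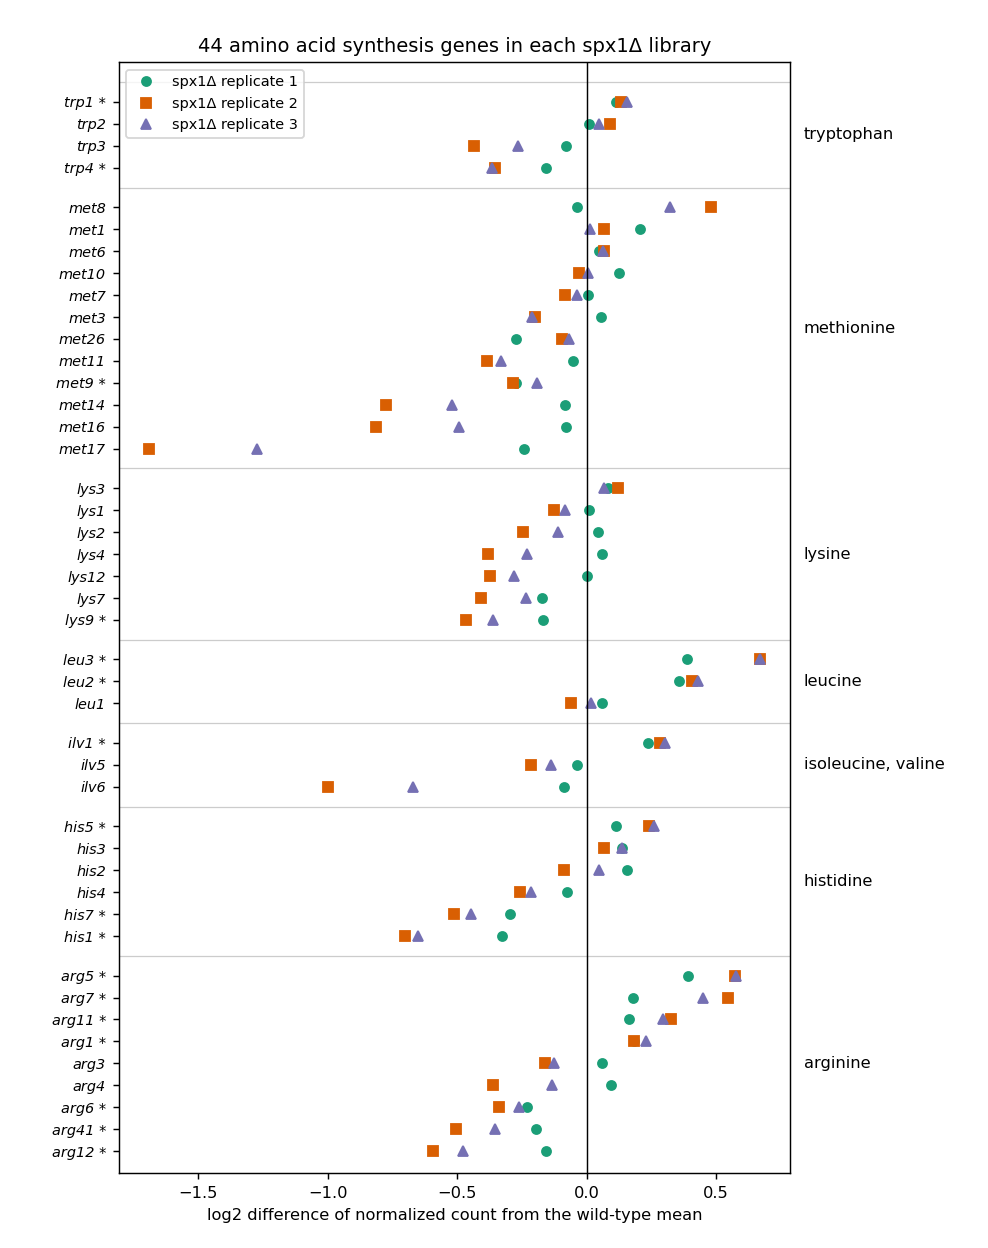
Log2 difference of the normalized count from the wild-type mean (horizontal axis) for each of the 44 synthesis genes, grouped by amino acid, in *spx1*Δ replicates 1 (green circles), 2 (orange squares) and 3 (purple triangles). Asterisks mark genes called at an adjusted p of at most 0.05; *leu3* and *leu2* lie to the right in all 3 libraries, and *met17* lies far to the left in replicates 2 and 3 but at -0.24 in replicate 1.

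Leucine synthesis held the largest rise among the synthesis genes, that of *leu3*. *leu3* encodes 2-isopropylmalate synthase, the enzyme that commits the pathway to leucine. Its normalized counts were 8350, 9213 and 8724 in wild-type replicates 1, 2 and 3 and 11459, 13930 and 13938 in *spx1*Δ replicates. All mutant libraries lay above all wild-type libraries, with the smallest rise in replicate 1. The log2 fold change was 0.58 (standard error, SE, 0.09, adjusted p = 0.00524 from edgeR).

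*leu2*, for 3-isopropylmalate dehydratase, the next enzyme, had 19292, 20312 and 19620 normalized counts in wild-type cells. In *spx1*Δ cells it had 25262, 26172 and 26580, again without overlap and with little spread between the mutant libraries. It rose by 0.40 (SE 0.06, 1.32-fold, adjusted p = 0.00408). *leu1* encodes 3-isopropylmalate dehydrogenase and is the gene of the *leu1-32* allele. It had 8445, 9246 and 8333 normalized counts in wild-type and 9036, 8329 and 8784 in *spx1*Δ cells, and the groups overlapped. Its log2 fold change was 0.01 (SE 0.06, adjusted p = 0.932). The 3 *leu* genes took 0.201% ± 0.005 (SD, n = 3) of the counts in wild-type libraries and 0.268% ± 0.015 (SD, n = 3) in *spx1*Δ libraries.

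The enzymes that isoleucine, valine and leucine share did not move together. Acetolactate synthase carries out their first common step, and its catalytic subunit is encoded by *ilv1*. Normalized counts of *ilv1* were 6918, 7654 and 6911 in wild-type and 8444, 8718 and 8826 in *spx1*Δ cells, and its log2 fold change was 0.27 (SE 0.06, adjusted p = 0.0129). It did not pass without wild-type replicate 1 (adjusted p = 0.0638), wild-type replicate 3 (0.0550) or *spx1*Δ replicate 3 (0.0586). The gene for the regulatory subunit of the same enzyme, *ilv6*, had 9019, 9596 and 9305 normalized counts in wild-type cells. In *spx1*Δ replicates 1, 2 and 3 it had 8761, 4651 and 5846, so replicate 1 lay just below the wild-type range and the others far below it. Its log2 fold change of -0.54 (SE 0.22, adjusted p = 0.0742) did not pass, but it passed with DESeq2 (adjusted p = 0.0277) and, at -0.83, without *spx1*Δ replicate 1 (1.19e-05). *ilv5*, for acetohydroxyacid reductoisomerase, was at 44866 to 48237 normalized counts in wild-type cells against 40129 to 45280 in the mutant, with overlap (log2 fold change -0.13, adjusted p = 0.165). It passed without *spx1*Δ replicate 1 (-0.18, adjusted p = 0.0231).

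**Figure D3:**
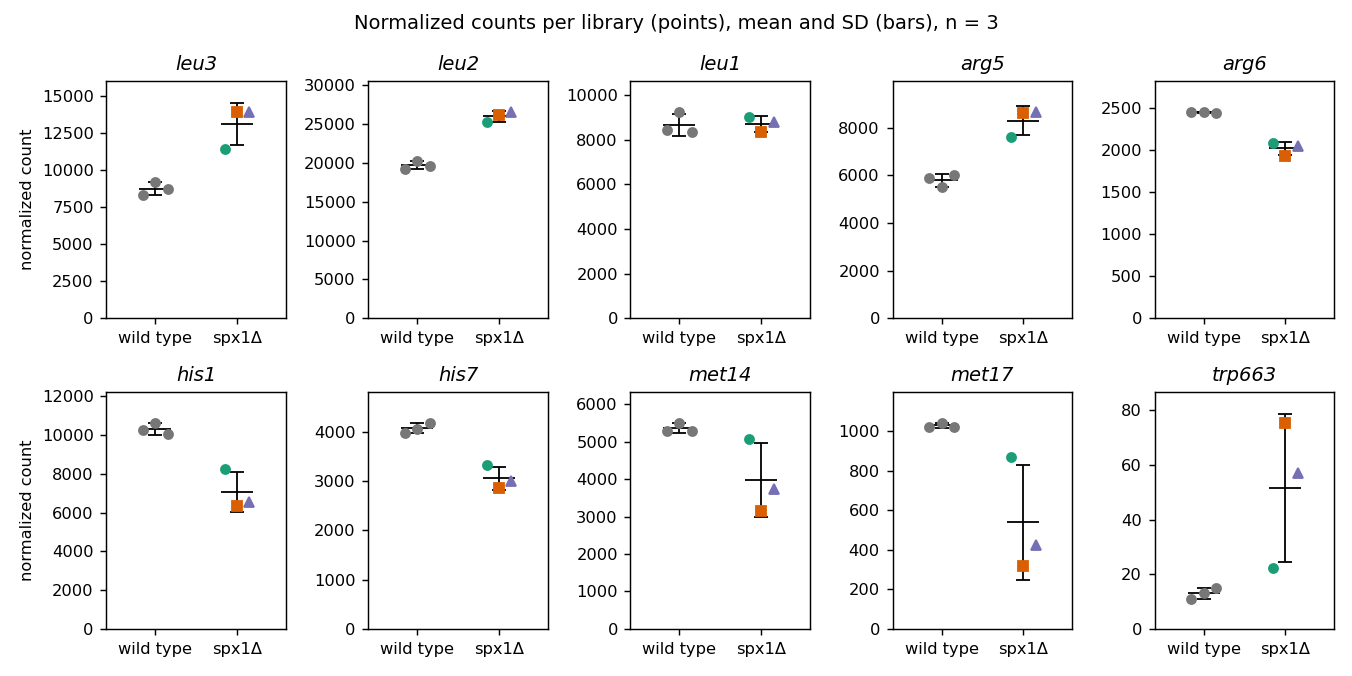
Normalized counts (vertical axes, each from 0) of 10 members in the 3 wild-type libraries (grey) and in *spx1*Δ replicates 1 (green circles), 2 (orange squares) and 3 (purple triangles), with the mean and SD as bars. *leu3*, *leu2* and *arg5* are higher and *arg6*, *his1* and *his7* lower in every *spx1*Δ library, while *met14* and *met17* come nearest to the wild-type level in replicate 1.

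Arginine synthesis had the most calls, 7 of 9 genes, in both directions: 4 rose and 3 fell, where 21.2% of protein-coding genes rose and 30.2% fell. Along the acetylated part of the pathway, *arg6* for acetylglutamate synthase, the entry enzyme, was at 2453, 2454 and 2436 normalized counts in wild-type and 2084, 1935 and 2043 in *spx1*Δ cells. The wild-type values nearly coincided and every mutant value lay below them. It fell by 0.28 on the log2 scale (SE 0.05, 1.21-fold lower, adjusted p = 0.00860). The following enzymes were higher. *arg11*, for a protein with acetylglutamate kinase and reductase activities, had a log2 fold change of 0.26 (SE 0.06, adjusted p = 0.0149). *arg1*, for acetylornithine aminotransferase, had one of 0.20 (SE 0.05, adjusted p = 0.0219). The call for *arg11* was lost without wild-type replicate 1 (adjusted p = 0.0684), wild-type replicate 2 (0.0565) or *spx1*Δ replicate 3 (0.0668). That for *arg1* was lost without wild-type replicate 1 (0.101), wild-type replicate 3 (0.0732) or either of *spx1*Δ replicates 2 (0.0503) and 3 (0.0969), and with the replicate block (0.0715).

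Carbamoyl phosphate for arginine is made by an enzyme of *arg5* and *arg4* subunits. *arg5* had 5871, 5494 and 6018 normalized counts in wild-type and 7610, 8614 and 8652 in *spx1*Δ cells. No value overlapped, and the log2 fold change was 0.52 (SE 0.07, 1.43-fold, adjusted p = 0.00408). *arg4* had 12775, 13261 and 13113 in wild-type and 13917, 10143 and 11899 in *spx1*Δ cells, with replicate 1 above and the other two below wild type. Its log2 fold change was -0.12 (SE 0.11, adjusted p = 0.379), or -0.25 without *spx1*Δ replicate 1 (adjusted p = 0.00804). *arg3*, for ornithine carbamoyltransferase, which joins carbamoyl phosphate to ornithine, was at 1612 to 1809 and 1512 to 1763 normalized counts (log2 fold change -0.07, adjusted p = 0.480). Without *spx1*Δ replicate 1 it was -0.15 (adjusted p = 0.0496).

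The last steps turn citrulline into arginine. *arg12*, for argininosuccinate synthase, was at 7104, 6807 and 7506 normalized counts in wild-type and 6409, 4737 and 5129.7 in *spx1*Δ cells. The groups did not overlap, and it fell by 0.40 (SE 0.12, adjusted p = 0.0297). The final enzyme, argininosuccinate lyase, is annotated for 2 genes, and they moved in opposite directions. *arg7* had 822, 879 and 755 normalized counts in wild-type and 927, 1197 and 1120 in *spx1*Δ cells, a rise of 0.40 (SE 0.12, adjusted p = 0.0274). *arg41*, a predicted lyase, had 2648, 2850 and 2811 in wild-type and 2416, 1954 and 2167 in *spx1*Δ cells, and it fell by 0.35 (SE 0.09, adjusted p = 0.0184). How alike the sequences of *arg7* and *arg41* are was not analysed here, so sharing of reads between them is uncertain. Leaving out any library except *spx1*Δ replicate 1 ended the calls for *arg12* and *arg7* (adjusted p = 0.0571 to 0.106). *arg41* did not pass without wild-type replicate 1 (0.0505), 2 (0.0658) or 3 (0.0665) or without *spx1*Δ replicate 3 (0.0689).

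Ratios of counts within a library do not depend on scaling, and they were taken for 7 pairs chosen after their values were seen. The ratio of *arg7* to *arg41* was 0.310, 0.308 and 0.269 in wild-type and 0.384, 0.613 and 0.517 in *spx1*Δ libraries, 1.71 times higher on average. The ratio of *arg5* to *arg4* was 0.460, 0.414 and 0.459 in wild-type and 0.547, 0.849 and 0.727 in *spx1*Δ libraries. For *ilv1* over *ilv6* it was 0.767, 0.798 and 0.743, against 0.964, 1.87 and 1.51. For *leu3* over *leu1* it was 0.989, 0.996 and 1.05, against 1.27, 1.67 and 1.59. In these pairs, and for *his5* over *his7* and *arg11* over *arg3*, the strains did not overlap in the direction of a higher ratio in *spx1*Δ cells. Each had p = 0.1 in a two-sided exact permutation test (0.117 after Benjamini-Hochberg adjustment over the 7 pairs), the smallest p that 3 libraries against 3 allow. Because the pairs were picked by their values, these p-values only describe the separation. The adjustment does not cover that choice. The ratio of *met9* to *met11* overlapped between the strains (exact permutation p = 1).

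**Figure D4:**
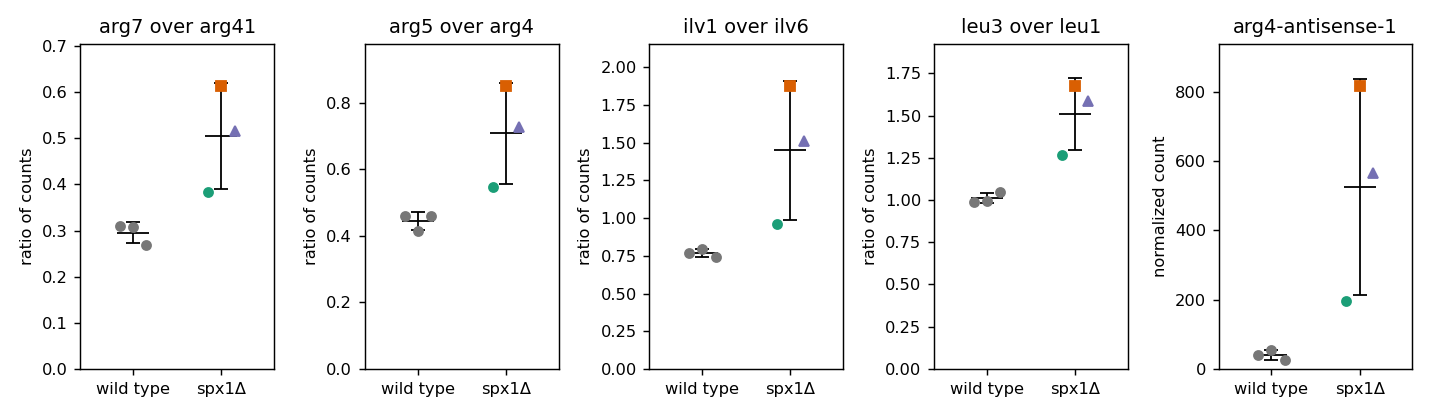
Ratios of counts between members in the same library (the 4 left panels) and normalized counts of the RNA antisense to *arg4* (right panel), with vertical axes from 0. Grey points are wild-type libraries, green circles, orange squares and purple triangles are *spx1*Δ replicates 1, 2 and 3, and bars give the mean and SD; in all 5 panels every *spx1*Δ library lies above every wild-type library, with replicate 1 the lowest of the 3.

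Antisense RNAs are annotated at 2 of the members. arg4-antisense-1 had raw counts of 33, 34 and 20 in wild-type libraries and 264, 1005 and 666 in *spx1*Δ libraries. Its normalized counts were 39.9, 55.4 and 25.0 against 195, 815 and 567, lowest in replicate 1 among the mutant libraries. The log2 fold change was 3.73 (SE 0.60, adjusted p = 0.00544), and it passed in all 11 alternatives that tested it. Its counts equalled 0.191% to 0.418% of those of *arg4* in wild-type and 1.40%, 8.04% and 4.76% in *spx1*Δ replicates 1, 2 and 3. his5-antisense-1 was at 36.3 to 42.4 normalized counts in wild-type cells against 26.0 to 38.5 in the mutant and did not pass (adjusted p = 0.507). The library kit keeps strand, but the strand setting used in counting was not given, so antisense and sense reads may not be fully separated.

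In histidine synthesis the early enzymes were lower. *his1* encodes ATP phosphoribosyltransferase, the first enzyme. It had 10258, 10640 and 10059 normalized counts in wild-type and 8228, 6341 and 6566 in *spx1*Δ cells. The groups did not overlap, and it fell by 0.55 (SE 0.11, 1.46-fold lower, adjusted p = 0.00863), the largest fall among the called synthesis genes. *his7*, for the enzyme of the following reactions on the same chain, was at 3984, 4064 and 4185 in wild-type and 3317, 2861 and 2994 in *spx1*Δ cells. It fell by 0.42 (SE 0.07, 1.33-fold lower, adjusted p = 0.00568).

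Later enzymes differed from these. *his5*, for imidazoleglycerol-phosphate dehydratase, was at 3219 to 3306 normalized counts in wild-type cells against 3520 to 3895 in the mutant and rose by 0.21 (SE 0.06, adjusted p = 0.0249). Leaving out any library except *spx1*Δ replicate 1 ended that call (adjusted p = 0.0651 to 0.1001), as did a fit with the replicate number as a block (0.0513). *his4*, for imidazoleglycerol-phosphate synthase, did not pass (log2 fold change -0.18, adjusted p = 0.0561), but did with DESeq2 (0.0485) and without *spx1*Δ replicate 1 (0.00157). *his2*, for histidinol dehydrogenase, the last enzyme, was at 5532 to 6034 and 5426 to 6440 (adjusted p = 0.651). *his3*, for histidinol-phosphate aminotransferase, is the gene of the *his3-D1* allele. Its normalized counts were 162, 191 and 211 in wild-type and 207, 197 and 207 in *spx1*Δ cells, overlapping (log2 fold change 0.11, SE 0.14, adjusted p = 0.505). Raw counts of *his3* were 117 to 169 in wild-type libraries against 243 to 279 in the mutant. Where on the gene these reads lie was not analysed here.

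Among methionine genes 1 of 12 passed, *met9*, which is 8.33% against 51.4% of protein-coding genes. Several genes of sulfate reduction differed widely between the *spx1*Δ libraries. *met17* encodes homocysteine synthase, which puts reduced sulfur onto the carbon chain. Its normalized counts were 1024, 1043 and 1020 in wild-type cells, a range of little width, and 871, 319 and 425 in *spx1*Δ replicates 1, 2 and 3. Every mutant value was lower, replicate 1 by far the least. The log2 fold change was -0.93 (SE 0.35, adjusted p = 0.0609), short of the threshold, and -1.47 without *spx1*Δ replicate 1 (adjusted p = 1.25e-06). It passed with DESeq2 (adjusted p = 0.0137), with limma-voom (0.0437) and with the replicate block (0.0351).

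*met14*, for adenylyl-sulfate kinase, was at 5299.9, 5511 and 5284 in wild-type and 5068, 3138 and 3738 in *spx1*Δ cells (log2 fold change -0.43, SE 0.17, adjusted p = 0.0656). *met16*, for phosphoadenosine phosphosulfate reductase, the next enzyme, was at 2094, 2066 and 1921 in wild-type and 1918, 1153 and 1439 in *spx1*Δ cells (-0.43, SE 0.18, adjusted p = 0.0771). Both had replicate 1 just below the wild-type range and replicates 2 and 3 well below it. With DESeq2 both passed (adjusted p = 0.0291 for *met14* and 0.0426 for *met16*), and *met16* also with the replicate block (0.0498). Without *spx1*Δ replicate 1 the changes were -0.65 for *met14* (adjusted p = 1.78e-05) and -0.65 for *met16* (7.86e-05). The sulfite reductase subunit gene *met10* did not pass (log2 fold change 0.04, adjusted p = 0.693). Nor did the siroheme genes *met1* (0.10, adjusted p = 0.324) and *met8* (0.27, adjusted p = 0.124), whose products make the cofactor of that reductase. *met8* passed without *spx1*Δ replicate 1 (0.40, adjusted p = 3.55e-04).

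The carbon chain of methionine comes from homoserine. *met6*, for homoserine O-acetyltransferase, was at 6029 to 6544 and 6447 to 6528 normalized counts (log2 fold change 0.06, adjusted p = 0.356), and *met3*, for cystathionine gamma-synthase, had a log2 fold change of -0.11 (adjusted p = 0.287). Without *spx1*Δ replicate 1 *met3* was at -0.21 (adjusted p = 0.00313). The methyl group is supplied by methylenetetrahydrofolate reductases, of which *met9* fell from 3532 to 3684 normalized counts in wild-type to 2947 to 3145 in *spx1*Δ cells. It fell by 0.25 (SE 0.05, adjusted p = 0.0107), and had an adjusted p of 0.0530 without wild-type replicate 1. *met11*, for the same activity, had a similar log2 fold change of -0.25 but a larger SE of 0.09 (adjusted p = 0.0614). It passed with DESeq2 (0.0476) and, at -0.36, without *spx1*Δ replicate 1 (7.54e-05). *met26*, for the methionine synthase that uses this methyl group, was at 88585, 89988 and 89888 in wild-type and 73998, 83797 and 85313 in *spx1*Δ cells. Here replicate 1 lay farthest from wild type, whereas in most members it was the closest. All mutant values of *met26* lay below all wild-type values, but the log2 fold change of -0.14 did not pass (SE 0.08, adjusted p = 0.157). *met7*, for folylpolyglutamate synthase, was at -0.04 (adjusted p = 0.562).

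Lysine synthesis showed 1 call in 7 genes, 14.3% against 51.4% of protein-coding genes. *lys9*, for a saccharopine dehydrogenase near the end of the route, had 18744, 18314 and 19035 normalized counts in wild-type and 16630, 13529 and 14564 in *spx1*Δ cells. It fell by 0.33 (SE 0.08, 1.25-fold lower, adjusted p = 0.0199). It did not pass without wild-type replicate 1 (0.0693), 2 (0.0563) or 3 (0.0690) or *spx1*Δ replicate 3 (0.0804). *lys3*, for the other saccharopine dehydrogenase, was slightly higher without overlap, at 10142 to 10339 against 10741 to 11155, and did not pass (log2 fold change 0.09, adjusted p = 0.151). When the fit was limited to protein-coding genes it did (0.17, adjusted p = 0.0339).

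The earlier enzymes of lysine synthesis, homocitrate synthase (*lys4*), homoaconitase (*lys2*) and homoisocitrate dehydrogenase (*lys12*), had log2 fold changes of -0.17, -0.10 and -0.21 and did not pass (adjusted p = 0.226, 0.337 and 0.125). In all 3 genes replicate 1 was at or slightly above the wild-type mean and replicates 2 and 3 below it. Without *spx1*Δ replicate 1 their adjusted p was 9.76e-04, 0.0173 and 3.01e-04. Aminoadipate reductase (*lys1*) had a log2 fold change of -0.06 (adjusted p = 0.346). The gene for the transferase that activates it, *lys7*, was at 421 to 501 normalized counts in wild-type cells against 352 to 414 in the mutant (-0.27, adjusted p = 0.0814, and 0.0161 without *spx1*Δ replicate 1).

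In tryptophan synthesis *trp4*, for anthranilate phosphoribosyltransferase, was at 2341, 2276 and 2341 normalized counts in wild-type and 2078, 1814 and 1802 in *spx1*Δ cells. It fell by 0.29 (SE 0.07, 1.22-fold lower, adjusted p = 0.0174). Without wild-type replicate 1, 2 or 3 or *spx1*Δ replicate 3 the adjusted p was 0.0659, 0.0533, 0.0655 and 0.0747. *trp3*, for component I of anthranilate synthase, the first enzyme, had a log2 fold change of -0.25 (adjusted p = 0.0683) and passed without *spx1*Δ replicate 1 (adjusted p = 7.34e-04). *trp1*, whose multifunctional protein holds component II of that synthase, had 6864 to 7022 normalized counts in wild-type cells against 7545 to 7756 in the mutant, a log2 fold change of 0.13 (adjusted p = 0.0483). This smallest of the called changes was lost on leaving out any library except *spx1*Δ replicate 1 (adjusted p = 0.104 to 0.184), without the filter on low counts (0.0672) and with the replicate block (0.135). *trp2*, for tryptophan synthase, was at 0.05 (adjusted p = 0.457).

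The 3 members with other functions behaved differently from one another. *trp663*, for a predicted TRP-like ion channel, was scarce, with 10.9, 13.0 and 15.0 normalized counts in wild-type and 22.2, 75.4 and 57.0 in *spx1*Δ cells. The groups did not overlap, and its log2 fold change of 1.98 (SE 0.51, adjusted p = 0.0196) was the only change of at least 2-fold among the 47 members. It did not pass without wild-type replicate 1, 2 or 3 or *spx1*Δ replicate 3 (adjusted p = 0.0634 to 0.0749), nor with limma-voom (0.0584). *trp1322*, for the related calcium channel, did not pass (log2 fold change 0.03, adjusted p = 0.795). *arg82*, for the predicted inositol polyphosphate kinase, was at 998, 1107 and 1054 normalized counts in wild-type and 887, 678 and 765 in *spx1*Δ cells and fell by 0.44 (SE 0.11, 1.36-fold lower, adjusted p = 0.0190). Without wild-type replicate 1, 2 or 3 or *spx1*Δ replicate 3 its adjusted p was 0.0527, 0.0679, 0.0647 and 0.0712.

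Some members lie beside each other in the gene order of the reference annotation, whose build differs from that of the count table. *arg11* and *arg3* are adjacent coding genes, and *ilv5*, *met6* and *arg5* lie close together with 1 other coding gene among them. In none of these pairs were both genes called: *arg11* rose and *arg3* did not pass, and *arg5* rose while the adjacent *met6* and *ilv5* both did not pass. So few pairs cannot show whether neighbors change together.

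Other amino acid synthesis genes, from a list of 40 symbols of which 30 matched a coding gene outside the name pattern, fell more often than they rose. Of 29 tested, 5 rose, 14 fell and 10 did not pass, with a median log2 fold change of -0.27. These are 17.2% and 48.3% of the list, against 21.2% and 30.2% of protein-coding genes. Products of 4 matched symbols lie outside amino acid synthesis (*ect1*, *aps3*, *hcs1* and *str3*), and without them 5 of 26 rose and 13 fell. These 26 were not sorted into genes that make and genes that use amino acids, so the list is not one of synthesis alone. The falls included serine and one-carbon genes. Phosphoserine phosphatase (*ser2*) fell by 1.24 (SE 0.13, adjusted p = 0.00228), S-adenosylmethionine synthetase (*sam1*) by 0.88 (SE 0.13, adjusted p = 0.00466) and serine hydroxymethyltransferase (*shm2*) by 0.97 (SE 0.25, adjusted p = 0.0192). *shm2* did not pass without wild-type replicate 1, 2 or 3 or *spx1*Δ replicate 3 (adjusted p = 0.0581 to 0.0732).

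Sulfate adenylyltransferase (*sua1*), which acts just before the kinase of *met14*, had 13845, 14396 and 11678 normalized counts in wild-type replicates and 9249, 2758 and 3556 in the mutant ones. It fell by 1.36 (SE 0.44, adjusted p = 0.0398), with log2 differences of -0.52, -2.27 and -1.90 in replicates 1, 2 and 3, the order seen for *met14*, *met16* and *met17*. Leaving out any library except *spx1*Δ replicate 1 ended the call (adjusted p = 0.0668 to 0.125). Cysteine synthase (*cys11*) fell by 0.79 (SE 0.18, adjusted p = 0.0133), and not without wild-type replicate 3 (0.0528) or *spx1*Δ replicate 3 (0.0557). Of the 5 rises, the largest was that of NAD-dependent glutamate dehydrogenase (*gdh2*), with a log2 fold change of 1.21 (SE 0.16, adjusted p = 0.00386). Whether this enzyme makes glutamate or breaks it down in these cells was not tested.

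Regulators of the amino acid starvation response, 12 of 13 symbols matched, held 2 rises and 3 falls, 16.7% and 25.0% of the list against 21.2% and 30.2% of protein-coding genes, so the list did not stand above the background in either direction. The gene for the transcription factor Fil1 was at 12816, 13780.0 and 12797 normalized counts in wild-type replicates and 14491, 17294 and 16613 in the mutant ones, with a log2 fold change of 0.30 (SE 0.08, adjusted p = 0.0233). Its call, too, held only when all libraries or all but *spx1*Δ replicate 1 were used (otherwise adjusted p = 0.0521 to 0.0911 with a library left out). *gcn1*, for an activator of the eIF2 kinase Gcn2, rose by 0.54 (SE 0.10, adjusted p = 0.00758), and *gcn2* itself was at 0.03 (adjusted p = 0.673). The eIF2 kinase gene *hri1* fell by 0.63 (SE 0.18, adjusted p = 0.0251), and not without wild-type replicate 1, 2 or 3 or *spx1*Δ replicate 3 (adjusted p = 0.0571 to 0.0905). *atf1*, for a stress transcription factor, fell by 0.40 (SE 0.05, adjusted p = 0.00381), and *gcn20* fell by 0.23 (SE 0.05, adjusted p = 0.0119), a call lost without wild-type replicate 1 (0.0530) or *spx1*Δ replicate 3 (0.0582).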

How the data were processed

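The 6 libraries, 3 per strain, were grouped by sample title. The deposited table holds the counts the authors obtained with HTSeq 0.10.0 after mapping with HISAT2 2.1.0 to build ASM294v2, unscaled. Another deposited table holds the authors' DESeq2 comparison (fold changes, p-values and means), of which only gene names, products and types were used here. The reference genome at hand is of a later build, so only gene names and the order of neighboring genes were taken from it, with no coordinates, lengths or sequences, and levels were not compared between genes.

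After 1 duplicate ID was dropped the table held 6986 IDs. With R 4.3.3 and edgeR 4.0.16, counts were filtered with filterByExpr (6127 genes kept), scaled by TMM and compared between strains with glmQLFit and glmQLFTest (two-sided, no covariate), with Benjamini-Hochberg adjustment over that set. A standard error is the absolute log2 fold change over the square root of F. Alternatives were DESeq2 1.42.0, limma-voom (limma 3.58.1), no filter, library size only, only protein-coding genes, the replicate number as a block and each library left out. The test was checked on simulated data in which no library of a strain stood apart. That check does not cover mutant replicates as uneven as those here. The planned levels per gene length were not computed. Members named in full are those the strains carry alleles of, those changed at least 2-fold and the largest changes of each amino acid group; every member may be named. From each of the 2 other lists up to 6 called genes with the largest change are named; *cys11* in place of *ect1*, whose product lies outside amino acid synthesis, and *gcn2* were chosen after their values were seen. The members and lists were chosen with earlier results of these data known. Since replicates of 1 strain are compared, p-values measure the spread between these replicates.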

Additional observations from a re-analysis of the deposited data

How the results depend on the processing

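Of 564 log2 fold changes of single members under the 12 alternatives, 469 kept their direction and their side of the threshold, 56 lost a call, 26 gained one and 13 changed sign. No member was called in opposite directions by 2 analyses. The sign changes were all in members that were not called: *leu1* (-0.0012 without the filter), *arg3* (0.0024) and *lys1* (0.011) in the fit of coding genes alone, and *met7* (0.0095 with library size only, 0.038 with coding genes alone). With a library left out, *leu1* ranged from -0.024 to 0.049, *his2* from -0.023 to 0.11, *met10* from -0.014 to 0.087 and *trp1322* from -0.043 to 0.078. With 1 library left out, 3 to 11 members were higher and 3 to 24 lower, of the other synthesis genes 2 to 5 were higher and 5 to 17 lower, and of the starvation regulators 1 to 4 were higher and 1 to 5 lower. Of protein-coding genes, these fits called 10.3% to 30.2% higher and 10.8% to 45.6% lower. DESeq2 called 15 members and 5 regulators lower, beside 32.6% of protein-coding genes. In the fit of coding genes alone 8 of the other synthesis genes were higher, as were 26.0% of protein-coding genes. With protein-coding IDs as the denominator the members took 2.20% of wild-type and 2.24% of *spx1*Δ counts.

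Replicate numbers are shared between the strains. Deviations of same-numbered libraries from their group means correlated at 0.12, 0.03 and 0.05 across genes, so the numbers were not taken to pair the cultures. With the replicate block 7 members were higher and 11 lower, of which 16 were among the 19 calls without it. The block fit called 18.5% of protein-coding genes higher and 27.1% lower. For the other synthesis genes the block gave 4 higher and 14 lower, and for the regulators 2 and 4. The synthesis genes had at least 117 counts in every library. How much of the spread between libraries is counting error was not computed.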
